A study of Mus musculus with 15 samples.

Results

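The genes described here are 10 genes that make or handle pulmonary surfactant or mark the alveolar type 2 cell that secretes it. They were chosen by symbol, and each matched 1 of the 56748 genes counted in every library. Sftpa1, Sftpb, Sftpc and Sftpd encode the surfactant proteins, Abca3, Napsa and Lamp3 act in or mark the lamellar body and its protein processing, and Slc34a2, Etv5 and Cxcl15 are a phosphate transporter, a transcription factor and a secreted chemokine of alveolar epithelium.

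Surfactant is a film of phospholipid and protein that lowers surface tension in the alveoli and keeps them open. Alveolar type 2 cells store it in lamellar bodies, secrete it, take part of it up again, and act as progenitors of the flat alveolar type 1 cells that form the gas exchange surface. Bleomycin in the airways injures this epithelium and is followed by inflammation and scarring.

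Libraries came from male C57Bl/6 mice, labelled wild type, with 3 mice in each of 5 groups. Mice for lung were 12 weeks old when given 1 instillation of bleomycin into the trachea at 1.5 units/kg, had their lungs taken on day 14, and received control IgG (IgGL) or the leptin-neutralizing antibody LepAb (LepL) at 10 mg/kg from day 1. Mice for kidney were 10 to 12 weeks old when given vehicle (WTK), or folic acid at 200 mg/kg followed by IgG (IgGK) or LepAb (LepK) at 10 mg/kg, and had their kidneys taken on day 28. LepAb is a human monoclonal antibody that binds human and mouse leptin, and no antibody is named for WTK. Vehicle-treated lung was not analysed here, so the lung values compare both antibodies in bleomycin-treated lung and give no uninjured level.

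Total counts per library ran from 25913969 to 38924788. Libraries of 1 group differed by a chi-square of 7.15 to 98.6 per gene, so none was a repeat of another. The tissue labels fitted their defining genes. The summed level of 8 club cell markers was 7998 to 24920 normalized CPM in lung and 17.0 to 54.9 in kidney, and that of 11 proximal tubule markers was 56000 to 57900 in WTK and 742 to 1013 in IgGL. Normalized CPM are counts scaled to library size with edgeR's TMM factors, which were set apart for lung and for kidney, so levels between the organs or between genes are given in the deposited FPKM, which is also scaled to gene length.

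All 10 genes had a higher level in every LepL library than in any IgGL library. Of the 10, 6 rose past the test and 0 fell (Sftpa1, Sftpc, Sftpd, Lamp3, Etv5 and Cxcl15), and the other 4, Sftpb, Abca3, Napsa and Slc34a2, differed in the same direction without passing it. A gene was called where edgeR's quasi-likelihood test gave an adjusted p under 0.05 (Benjamini-Hochberg over all genes tested) and the log2 fold change was larger than 0.5 in size. Among the 19617 genes tested in lung, 4.14% were called, 1.78% higher and 2.36% lower, and the groups did not overlap in 33.3%, with LepL higher in 16% and lower in 17.3%. The median log2 fold change of the 10 genes was 1.07, against 0.00333 over all genes tested, and each of the 10 had an unadjusted p under 0.05, as had 27.3% of all genes tested. In RNA from whole lung, fewer type 2 cells and less RNA per cell cannot be told apart.

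**Figure D1:**
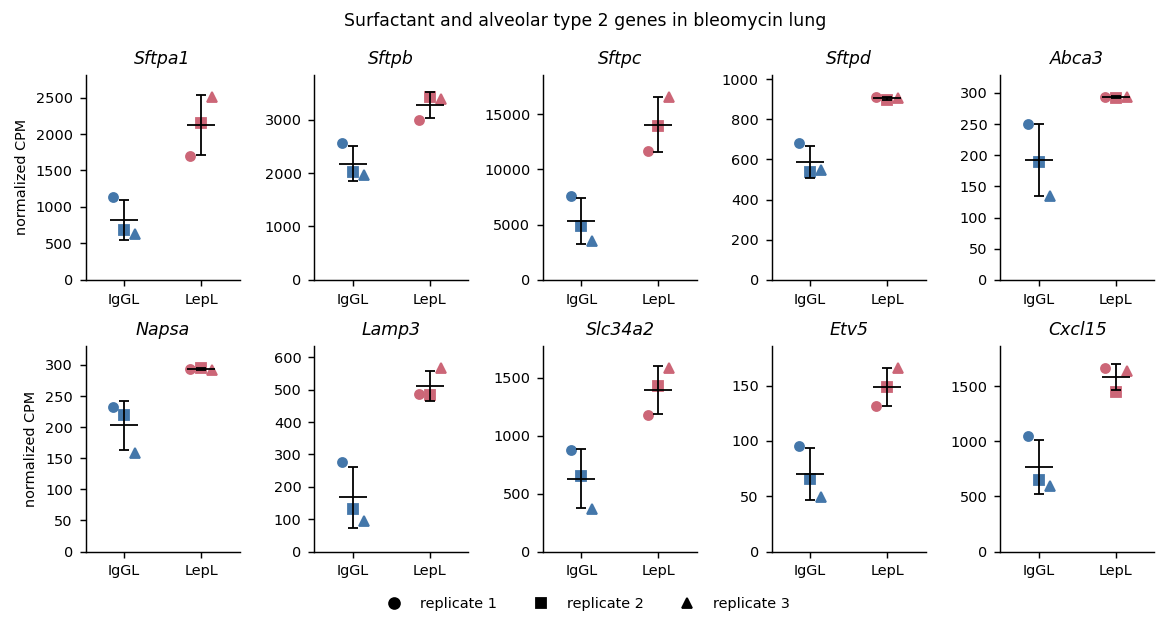
Normalized CPM (vertical axes, from 0) of the 10 genes in the 3 IgGL and 3 LepL libraries, with symbols for the replicate number and bars for the mean and SD. Every LepL point lies above every IgGL point in each panel, and IgGL replicate 1 is the highest IgGL point of all 10 genes.

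Sftpc and Sftpa1 showed the larger differences among the surfactant protein genes. Sftpc (chromosome 14, positions 70758389 to 70761521 in GRCm39, minus strand) encodes a small hydrophobic protein of the surface film that type 2 cells make. Its level was 7588, 4868 and 3548 normalized CPM in IgGL replicates 1 to 3 and 11630, 13970 and 16610 in LepL replicates 1 to 3. The IgGL libraries spread over a wider relative range than the LepL libraries, and the lowest LepL library stood well above the highest IgGL library. The log2 fold change was 1.40 (SE 0.28, edgeR adjusted p = 0.0391), from 5335 ± 2060 to 14070 ± 2495 normalized CPM (SD, n = 3 each).

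Sftpa1, a collectin of airspace defence, lies on chromosome 14 at 40853739 to 40858409 (plus strand), 35761 bases from Sftpd, the other collectin among the 10. Its level was 1141, 686 and 633 normalized CPM in IgGL replicates 1 to 3 and 1694, 2146 and 2514 in LepL replicates 1 to 3. IgGL replicate 1 again led its group, and the groups did not overlap. The log2 fold change was 1.37 (SE 0.25, edgeR adjusted p = 0.0337).

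Sftpd (chromosome 14, 40894171 to 40907106, minus strand) differed by less, and its LepL libraries were nearly equal. The level was 680, 538 and 548 normalized CPM in the IgGL libraries and 913, 895 and 904 in the LepL libraries. Sftpd rose by 0.62 on the log2 scale (SE 0.13, edgeR adjusted p = 0.0398).

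Sftpb (chromosome 6, 72281594 to 72291354, plus strand) encodes the protein needed to form the surface film. Its level was 2558, 2017 and 1962 normalized CPM in the IgGL libraries and 3000, 3435 and 3390 in the LepL libraries. The groups did not overlap, but the log2 fold change of 0.59 (SE 0.16) missed the threshold with an edgeR adjusted p of 0.0632.

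Of the lamellar body genes, Lamp3 differed most. Lamp3 (chromosome 16, 19472128 to 19525125, minus strand) encodes a lysosomal membrane protein of lamellar bodies that mature dendritic cells also make. The level was 275, 132 and 94.8 normalized CPM in IgGL replicates 1 to 3 and 488, 484 and 566 in LepL replicates 1 to 3. The IgGL libraries differed among themselves more than for any other of the 10 genes (coefficient of variation 57%), and the LepL libraries lay close together (9.04%). Its log2 fold change of 1.62 (SE 0.34, edgeR adjusted p = 0.0395) had the largest size among the 10 genes.

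Abca3 (chromosome 17, 24570924 to 24629175, plus strand) encodes the transporter that loads phospholipid into lamellar bodies, and Napsa (chromosome 7, 44221804 to 44236286, plus strand) the aspartic protease napsin A, which takes part in cutting the Sftpb precursor. Abca3 was at 250, 190 and 135 normalized CPM in the IgGL libraries and at 293, 292 and 294 in the LepL libraries. Napsa was at 232, 219 and 158 normalized CPM in IgGL and at 293, 295 and 291 in LepL. For both genes the LepL libraries were almost level and the IgGL libraries lay below them, with replicate 3 lowest. Neither passed the test, with a log2 fold change of 0.61 for Abca3 (SE 0.19, edgeR adjusted p = 0.0914) and of 0.53 for Napsa (SE 0.15, edgeR adjusted p = 0.0682).

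Etv5 (chromosome 16, 22200059 to 22258469, minus strand) encodes an ETS-family transcription factor that acts downstream of receptor tyrosine kinase signalling in type 2 cells. Its level was 95.1, 66.0 and 48.9 normalized CPM in the IgGL libraries and 131, 148 and 166 in the LepL libraries. IgGL replicate 1 stood closest to the LepL libraries without reaching them. Etv5 rose by 1.08 on the log2 scale (SE 0.22, edgeR adjusted p = 0.0386).

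Cxcl15 (chromosome 5, 90942393 to 90950926, plus strand) encodes the chemokine lungkine, which lung epithelium secretes. Its level was 1046, 651 and 595 normalized CPM in the IgGL libraries and 1661, 1442 and 1640 in the LepL libraries. The groups did not overlap, and the log2 fold change was 1.05 (SE 0.21, edgeR adjusted p = 0.0391).

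Slc34a2 (chromosome 5, 53195423 to 53229006, plus strand) encodes the sodium-phosphate cotransporter NaPi-IIb, which clears the phosphate set free from surfactant lipid. The level was 878, 649 and 363 normalized CPM in the IgGL libraries and 1175, 1430 and 1581 in the LepL libraries. IgGL replicate 3 was well below the other libraries. The log2 fold change of 1.15 (SE 0.28) was above that of Etv5, Cxcl15 and Sftpd, which passed, but Slc34a2 missed the threshold with an edgeR adjusted p of 0.0544.

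**Figure D2:**
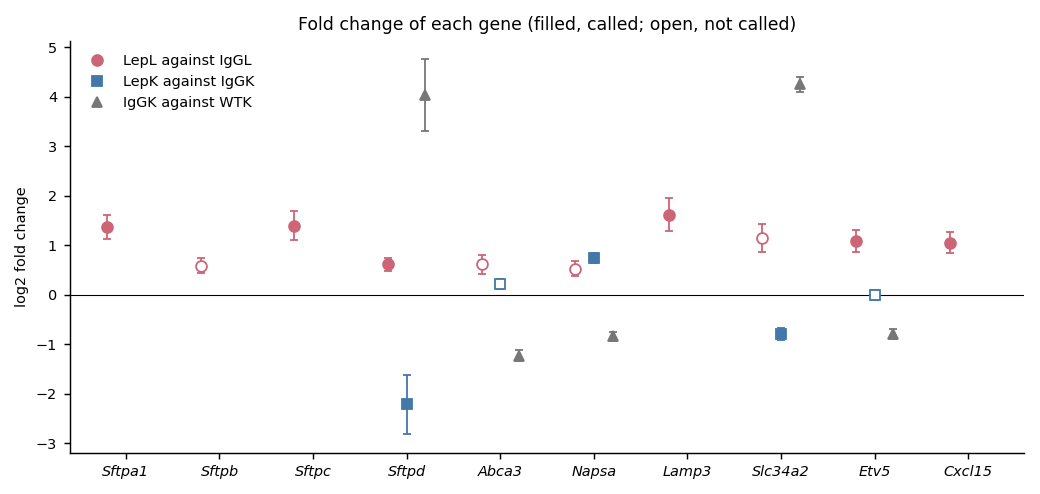
Log2 fold change (vertical axis, points with SE) of the 10 genes in LepL against IgGL, and of the 5 that passed the filter in kidney in LepK against IgGK and IgGK against WTK, filled where called (Sftpd passed that filter only through IgGK). The kidney points of Sftpd are therefore a description, with no test read. In lung all 10 lie between 0.53 and 1.62, and in kidney the 5 genes lie on both sides of 0.

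The 10 genes placed the IgGL libraries in much the same order, and the LepL libraries less so. IgGL replicate 1 was the highest IgGL library for 10 of 10 genes, IgGL replicate 3 was the lowest of all 6 for 9 and IgGL replicate 2 for the remaining gene. LepL replicate 3 was the highest of the 6 for 6 genes, and LepL replicates 1 and 2 for 2 each. The mean log2 level of the 10 genes, each centred on its own mean, was -0.06, -0.59 and -0.93 in IgGL replicates 1 to 3 and 0.42, 0.52 and 0.64 in LepL replicates 1 to 3.

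The calls depended on which library was left out. Without IgGL replicate 1, all 10 genes were called higher, where 17.3% of the genes tested were called. Without any of the other 5 lung libraries (IgGL replicate 2 or 3, or LepL replicate 1, 2 or 3), 0 of the 10 were called by edgeR at the adjusted threshold, while all 10 had an unadjusted p under 0.05, as had 16.7% to 23% of all genes, and a higher level in LepL. In those 5 fits 0 to 22 of all genes were called. DESeq2 on all 6 libraries called 10 of the 10 higher, where it called 11.9% of the genes tested. Over the 6 fits, the log2 fold change ran from 1.18 to 1.74 for Sftpc, from 1.33 to 2.18 for Lamp3 and from 0.37 to 0.64 for Napsa.

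The 10 genes took a large share of the lung RNA. Together they held 1.49%, 0.982% and 0.779% of the counts in IgGL replicates 1 to 3 and 2.17%, 2.45% and 2.85% in LepL replicates 1 to 3. Sftpc alone made up 43.9% to 51.5% of the counts of the 10 genes in IgGL and 54.6% to 59.4% in LepL. Its rank by FPKM among all genes was 2, 2 and 3 in the IgGL libraries and 2 in each LepL library.

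The size of the difference varied among the 10 genes. Each gene was therefore also set against Sftpb within the same library, which no scaling between libraries can move. This comparison was chosen after the values were seen. Sftpb had among the smaller lung log2 fold changes of the 10 genes (0.59), so the ratios restate in part the differences given above. The ratio of Sftpc to Sftpb counts was 2.97, 2.41 and 1.81 in IgGL replicates 1 to 3 and 3.88, 4.07 and 4.90 in LepL replicates 1 to 3. The ratio of Lamp3 to Sftpb counts was 0.108, 0.0654 and 0.0483 in IgGL and 0.163, 0.141 and 0.167 in LepL. The ratios of Sftpa1, Slc34a2, Etv5 and Cxcl15 also did not overlap between the groups and were higher in LepL, as for Sftpa1 with means of 0.370 in IgGL and 0.644 in LepL. For these 6 genes the exact two-sided permutation p was 0.1, the smallest that 3 against 3 libraries can give, and 0.15 after adjustment over the 9 ratios.

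Sftpd, Abca3 and Napsa kept a ratio to Sftpb that overlapped between the groups. The mean ratio of Sftpd was 0.271 in IgGL and 0.277 in LepL (exact permutation p = 0.9), that of Abca3 0.0868 and 0.0898 (exact permutation p = 0.9), and that of Napsa 0.0933 and 0.0899 (exact permutation p = 0.8). With 3 libraries a group, these p-values cannot show that the ratios were equal.

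**Figure D3:**
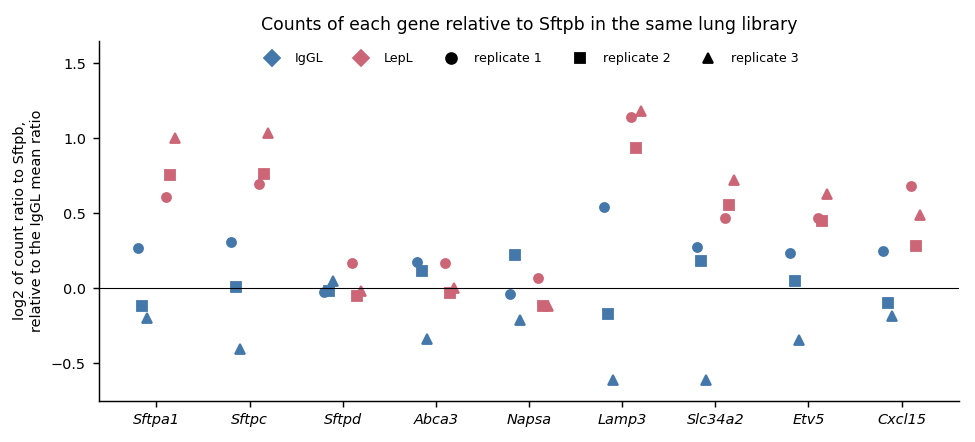
Log2 of the count ratio of each gene to Sftpb in the same lung library, relative to the mean ratio in IgGL (vertical axis), with 1 point per library. The ratios of Sftpa1, Sftpc, Lamp3, Slc34a2, Etv5 and Cxcl15 are higher in every LepL library, and those of Sftpd, Abca3 and Napsa overlap.

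The promoters of 7 of the 10 genes were read from RefSeq on build GRCm38.p6, and Sftpc, Sftpd and Napsa were not among them. Build GRCm38.p6 differs from that of the positions above, so the coordinates below are not to be mixed with them. The search covered 250 bases before and 50 after each gene start, on both strands, for the cores of factor families that act in type 2 cells. The 7 genes had 8 windows. CTCAAG, the core bound by NKX2-1, occurred in 3 of the 8 windows (Sftpa1, Sftpb and Cxcl15) and in 15.9% of all 32851 promoter windows. TGTTTAC, a forkhead core, occurred in 2 of the 8 windows (Lamp3 and Etv5) and in 3.65% of all windows. TTGCAA, a C/EBP core, and CCGGAAG, an ETS core, occurred in 0 of the 8 windows and in 6.23% and 8.86% of all windows. These motifs do not overlap one another in the windows shown.

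The 250 bases before the start are shown for Sftpa1 (chr14:41131538-41131787, plus strand), Sftpb (chr6:72304360-72304609, plus strand) and Lamp3 (chr16:19706366-19706615, minus strand), as examples of both motifs in genes with a small (Sftpb) and a larger (Sftpa1 and Lamp3) lung difference. The forkhead match of Etv5 and the NKX2-1 match of Cxcl15 are not shown. Capitals mark the NKX2-1 core in Sftpa1 and Sftpb and the forkhead core in Lamp3.
Sftpa1: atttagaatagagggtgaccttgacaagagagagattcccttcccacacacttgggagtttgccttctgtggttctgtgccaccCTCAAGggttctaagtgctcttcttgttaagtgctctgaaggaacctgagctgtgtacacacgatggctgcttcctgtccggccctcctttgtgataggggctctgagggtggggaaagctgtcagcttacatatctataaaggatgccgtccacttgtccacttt
Sftpb: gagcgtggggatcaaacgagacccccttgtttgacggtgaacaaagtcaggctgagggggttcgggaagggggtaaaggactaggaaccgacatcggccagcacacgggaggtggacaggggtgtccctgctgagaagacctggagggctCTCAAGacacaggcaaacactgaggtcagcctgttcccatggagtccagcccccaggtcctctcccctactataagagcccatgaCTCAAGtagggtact
Lamp3: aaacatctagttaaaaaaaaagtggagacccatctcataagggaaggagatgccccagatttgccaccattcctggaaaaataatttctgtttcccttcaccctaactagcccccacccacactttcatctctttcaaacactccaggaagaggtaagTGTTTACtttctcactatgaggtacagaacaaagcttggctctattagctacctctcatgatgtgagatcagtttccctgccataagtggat
Sftpa1 holds 1 NKX2-1 core, 166 to 161 bases before the start, and Sftpb holds 2, of which the nearer lies 15 to 10 bases before it. A match of letters is a description and shows no binding.

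Genes that work with these 10 in type 2 cells were read from lists chosen by known function. The lists were fixed with earlier results of these data known, so their counts are a description. Over all genes tested in lung, edgeR called 1.78% higher and 2.36% lower and DESeq2 called 11.9%. An unadjusted p under 0.05 was found for 27.3% in edgeR. Of 20 other type 2 markers, all tested, 10 rose in LepL and 0 fell, and the median of the 20 was 0.90 on the log2 scale. Those that rose were Egfl6, Muc1, Bex2, Ppp1r14c, Cbr2, S100g, Lyz1, Il33, Sfta2 and Dram1. Of the 20, 16 had an unadjusted p under 0.05, and DESeq2 called 14 higher and 0 lower. Il33, an alarmin cytokine, had 56.5 ± 32.4 normalized CPM in the IgGL libraries and 176 ± 24.0 in the LepL libraries (SD, n = 3), and its log2 fold change was 1.64 (edgeR adjusted p = 0.0391). Muc1, a transmembrane mucin, went from 146 ± 32.9 to 277 ± 16.7 (log2 fold change 0.92, edgeR adjusted p = 0.0327). The tight junction gene Cldn18 was at 663 ± 168 and 980 ± 34.2 and did not pass (edgeR adjusted p = 0.0959).

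Among 11 genes listed for transcription factors and signalling of type 2 cells, 3 rose and 0 fell, and the median was 0.48 on the log2 scale. Of the 11, 9 had an unadjusted p under 0.05, and DESeq2 called 4 higher and 0 lower. The list holds genes not limited to type 2 cells, such as Tcf21 and Sox9, and Sox9 is also on the injured tubule list. Nkx2-1, the lineage factor of lung epithelium, rose from 139 ± 31.8 to 243 ± 15.4 normalized CPM (log2 fold change 0.80, edgeR adjusted p = 0.0395). Fgfr2, a receptor for fibroblast growth factors, rose from 61.2 ± 17.3 to 137 ± 23.3 (log2 fold change 1.17, edgeR adjusted p = 0.0327), and Foxa1, a forkhead factor, rose by 0.73 on the log2 scale (edgeR adjusted p = 0.0409). Foxa2 had an edgeR adjusted p of 0.0461 but a log2 fold change of 0.48, under the size threshold.

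The genes for surfactant lipid were less uniform. Of 18 such genes, edgeR called 3 higher and 0 lower and DESeq2 called 7 higher and 2 lower, and the median was 0.18 on the log2 scale. Lpcat1, which makes the saturated phosphatidylcholine of surfactant, rose from 279 ± 63.7 to 484 ± 39.5 normalized CPM (log2 fold change 0.80, edgeR adjusted p = 0.0428). Atp8a1, a phospholipid flippase, rose by 0.91 (edgeR adjusted p = 0.0389), and Elovl1, a fatty acid elongase, by 0.83 (edgeR adjusted p = 0.0395) on the log2 scale. Scd1, a fatty acid desaturase, was at 1384 ± 694 in IgGL and 2916 ± 293 in LepL and did not pass (edgeR adjusted p = 0.0827), and the protease gene Ctsh had a log2 fold change of -0.71 without passing (edgeR adjusted p = 0.0545). Of 12 genes of surfactant clearance by macrophages, 0 were called by edgeR, 6 had an unadjusted p under 0.05, and DESeq2 called 3 higher and 1 lower. The median of these 12 was 0.36 on the log2 scale, and Chil3, a chitinase-like protein of macrophages, was at 712 ± 305 and 346 ± 47.7 normalized CPM (edgeR adjusted p = 0.0696).

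The other epithelial lists were counted in the same way, and no difference between lists was tested. Over all genes tested in lung, edgeR called 4.14%, DESeq2 called 11.9%, and 27.3% had an unadjusted p under 0.05 in edgeR. Of 12 alveolar type 1 markers, 0 were called by edgeR, 7 had an unadjusted p under 0.05 and DESeq2 called 3 higher and 0 lower. A positive log2 fold change was seen for 11 of the 12, and the median was 0.45. Hopx was at 277 ± 47.2 and 435 ± 70.8 normalized CPM (edgeR adjusted p = 0.0578). After injury, type 2 cells enter a transitional alveolar state on the way to type 1 cells. Of 14 genes of this state, edgeR called 0 higher and 1 lower, Cldn4, which fell by 0.88 on the log2 scale (edgeR adjusted p = 0.0493). Of the 14, 10 had an unadjusted p under 0.05, DESeq2 called 0 higher and 5 lower, and the median was -0.50. Of 10 pan-epithelial genes, which include the keratins Krt8 and Krt18 of the transitional list, 0 were called by edgeR, 7 had an unadjusted p under 0.05, DESeq2 called 1 higher, and the median was 0.23. Of these 10 genes, 7 were higher in every LepL library than in any IgGL library and 1 was lower, against 16% and 17.3% of all genes tested. Their summed level, which includes Krt8 and Krt18, was 1201 to 1653 normalized CPM in IgGL and 1315 to 1349 in LepL, so the sum overlapped. Of 8 club cell markers 2 rose (Scgb3a2 and Cyp2f2) and 0 fell, with a median of 0.20, and of 7 ciliated cell markers edgeR called 1 higher (Dnah5) and DESeq2 called 5 higher, with 0 lower by either and a median of 0.84.

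**Figure D4:**
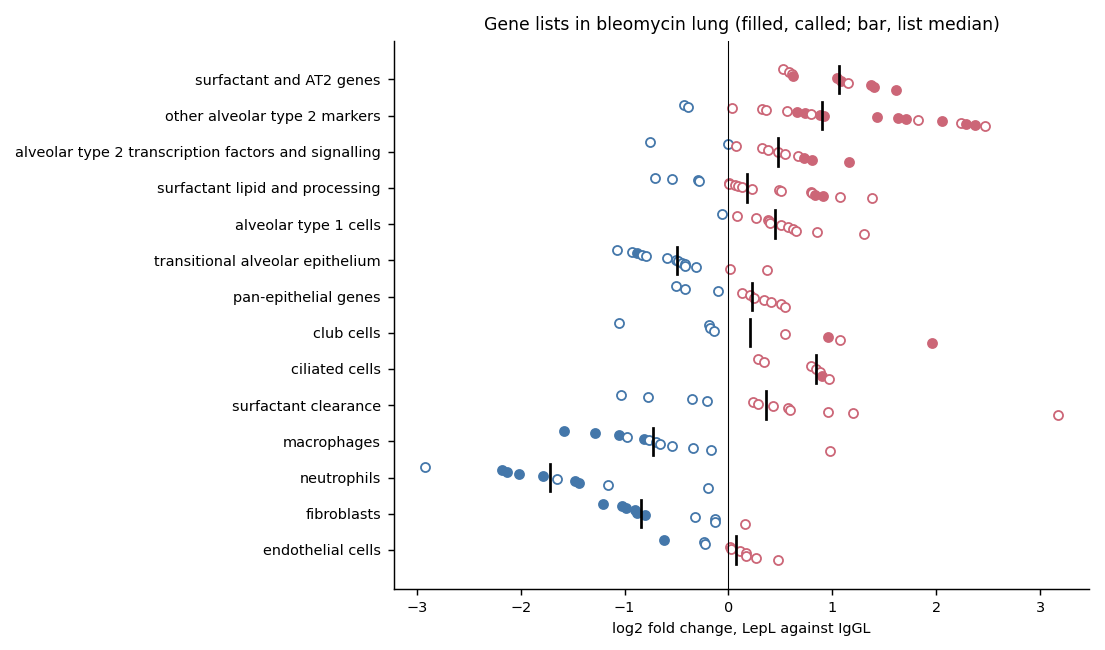
Log2 fold change in LepL against IgGL (horizontal axis) of each gene of 14 lists, filled where called, with a bar at the list's median. The 10 surfactant and type 2 genes and most other type 2 markers lie to the right of 0, and neutrophil, macrophage and fibroblast markers lie mostly to the left.

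Markers of other cell types moved with the antibody as well, and their part in the changes of the 10 genes was not tested. Of 10 fibroblast markers 6 fell and 0 rose, the median being -0.84 on the log2 scale, and their summed level was 7782 to 8888 normalized CPM in IgGL and 3549 to 4805 in LepL. Of 10 neutrophil markers tested 6 fell and 0 rose, with a median of -1.72, and the sum was 189 to 501 in IgGL and 73.4 to 113 in LepL. Of 12 macrophage markers edgeR called 4 lower (Mrc1, Itgam, Fcgr1 and C1qc) and 0 higher and DESeq2 called 7 lower and 1 higher, with a median of -0.73. Their summed level was nevertheless higher in LepL, at 8313 to 8580 against 4364 to 7068, since Lyz2, which type 2 cells also express, held 7169 ± 199 of it in LepL and 3644 ± 1575 in IgGL (edgeR adjusted p = 0.0752).

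The remaining lists were called in few genes. Of 10 endothelial markers 1 fell (Vwf) and 0 rose, with a median log2 fold change of 0.07, and 0 of 9 T and B cell markers were called by edgeR, with a median of 0.90, 2 unadjusted p-values under 0.05 and 1 higher call by DESeq2. Of 5 hemoglobin and erythroid genes 0 were called by edgeR or DESeq2 and 0 had an unadjusted p under 0.05, with a median of -0.51, and their sum was 860 to 6521 normalized CPM in IgGL, highest in replicate 3. Of the kidney lists, 4 of 11 proximal tubule genes were tested in lung and 1 rose (Slc27a2, median 0.57), and of 8 injured tubule genes 2 fell (Spp1 and Cdh6, median -0.27).

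Within IgGL, the library lowest for 9 of the 10 genes, replicate 3, was also the one with the most signal of several other lists. The summed level of the 14 transitional genes was 2819, 3754 and 4682 normalized CPM in IgGL replicates 1 to 3, and that of the neutrophil markers was 189, 229 and 501. Over the LepL libraries the transitional sum was 2769, 2646 and 2307, and the neutrophil sum was 78.5, 113 and 73.4. The transitional and neutrophil sums run opposite to the mean level of the 10 genes across the 3 IgGL libraries, though Sftpd was lowest in replicate 2. Other lists did not. The macrophage sum was 7068, 5710 and 4364 in IgGL replicates 1 to 3. That sum includes Lyz2, which type 2 cells also express, so it is not a measure of macrophages alone. The fibroblast sum was highest in replicate 2 (8888). The part of these lists in the spread was not tested.

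The genes outside the list whose profile over the 6 lung libraries was most like the mean profile of the 10 were Hnmt, Grb14, Enpep, Adrb1, Megf6 and Atp8a1, out of 10578 protein-coding genes with a mean of at least 10 CPM. Likeness was measured as the root mean square difference of centred log2 CPM, which was 0.044 for Hnmt and 0.0738 for Grb14, against a median of 0.62 over all candidates. Of the 10 genes themselves, Etv5 lay closest to their mean profile (0.0611) and Lamp3 farthest (0.412). Grb14, an adaptor of receptor tyrosine kinases, was at 25.2 ± 7.37 normalized CPM in IgGL and 53.6 ± 7.49 in LepL.

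In kidney the 10 genes divided into those at or near 0 and those with clear expression. Sftpa1 had 0 counts in all 9 kidney libraries, which allows a level of up to 0.0114 CPM over the 9 libraries, counting error only. Sftpc had 4 counts in all, Sftpb 12, Cxcl15 12 and Lamp3 19, and these 5 genes did not pass the filter on low counts. Slc34a2, Etv5, Abca3 and Napsa passed in every kidney group. Sftpd, with 139 counts over the 9 libraries, passed only through IgGK, where 3 of 3 libraries reached the cutoff of 0.336 CPM, against 0 of 3 in WTK and 1 of 3 in LepK. The group in which it was high thus let it into the fit, so its kidney values are given as a description, with no test.

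By FPKM, Napsa and Abca3 were higher in kidney than in lung, and the other 8 were higher in lung. Napsa had a mean of 535 FPKM over the 9 kidney libraries and 64.8 over the 6 lung libraries, a ratio of 8.26, and the lowest kidney library (308) stood above the highest lung library (77.4). Napsin A is also made by kidney tubules. Abca3 had a mean of 29.5 FPKM in kidney and 18.0 in lung, a ratio of 1.64, but IgGK and LepK (17.8 to 26.9) overlapped LepL (21.7 to 22.0). Etv5 was at 4.29 FPKM in kidney and 18.5 in lung, and Slc34a2 at 2.94 and 141. These are levels per length in different organs, injuries and days, and were not tested.

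In lung, the FPKM order of the mean levels was Sftpc (6541), Sftpb (937), Cxcl15 (384), Sftpa1 (358), Sftpd (215), Slc34a2 (141), Lamp3 (70.7), Napsa (64.8), Etv5 (18.5) and Abca3 (18.0). Over the 6 libraries, ranges of neighbours in this order were separate between Sftpc and Sftpb, between Sftpb and Cxcl15 and between Napsa and Etv5. The 6 genes from Cxcl15 to Napsa each overlapped the next, as did Etv5 and Abca3.

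**Figure D5:**
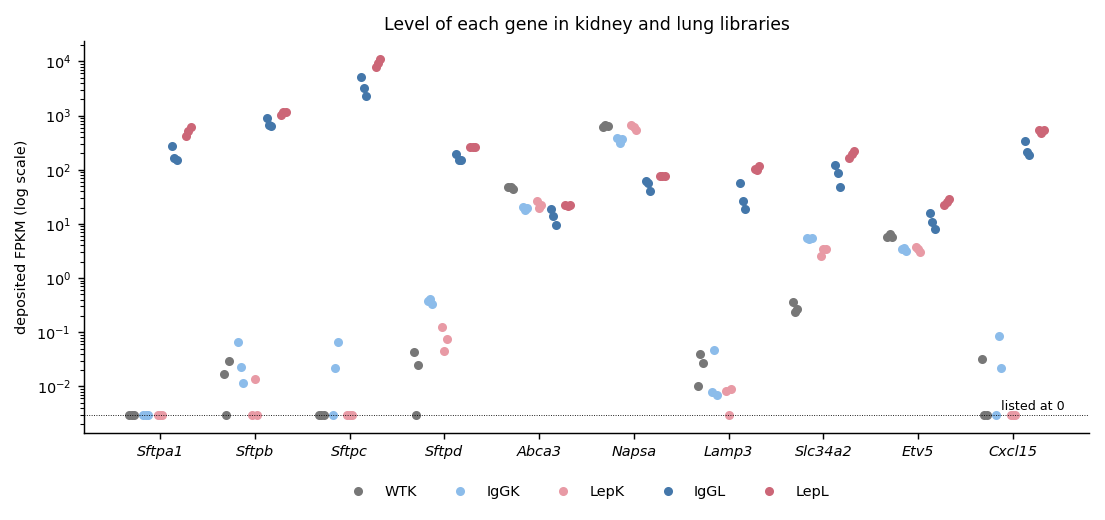
Deposited FPKM (vertical axis, log scale) of each gene in the 15 libraries, 1 point per library and 1 colour per group, with values listed at 0 drawn on the dotted line. Sftpa1, Sftpb, Sftpc, Lamp3 and Cxcl15 lie under 0.1 FPKM in every kidney library, and Napsa lies higher in every kidney library than in any lung library.

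After folic acid, Slc34a2 rose and Abca3, Napsa and Etv5 fell in IgGK against WTK. Of the 19593 genes tested in kidney, 37.3% were called in this comparison, 21.7% higher and 15.6% lower, so calls were common. The groups did not overlap for any of these 4 genes, nor for 62.6% of all genes tested (32.5% higher and 30.1% lower in IgGK).

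Slc34a2 had 52, 37 and 46 counts in the WTK libraries and 1018, 1140 and 1180 in the IgGK libraries. Its normalized CPM was 1.76 ± 0.36 in WTK and 33.4 ± 0.77 in IgGK (SD, n = 3), and the log2 fold change was 4.25 (SE 0.16, edgeR adjusted p = 7.61e-09). The 3 IgGK libraries were nearly equal and far above WTK. Sftpd had 3, 0 and 2 counts in the WTK libraries and 34, 44 and 35 in the IgGK libraries, a log2 fold change of 4.03 (SE 0.72) from few reads. Even in IgGK its level was 0.377 ± 0.041 FPKM, against 167 ± 25.2 FPKM in IgGL.

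Napsa was at 2020, 2160 and 2092 normalized CPM in the WTK libraries and at 1261, 1018 and 1222 in the IgGK libraries. All IgGK libraries lay below WTK, and the log2 fold change was -0.84 (SE 0.10, edgeR adjusted p = 1.21e-05). Abca3 fell from 538, 544 and 497 normalized CPM in WTK to 240, 207 and 227 in IgGK, by 1.23 on the log2 scale (SE 0.11, edgeR adjusted p = 1.09e-06). Etv5 was at 30.0 ± 2.54 normalized CPM in WTK and 17.3 ± 0.97 in IgGK, and its log2 fold change was -0.79 (SE 0.10, edgeR adjusted p = 2.39e-05). Under library-size scaling, where the median log2 fold change of all genes was 0.48 in place of 0.04, Abca3 was still called lower and Napsa (-0.40) and Etv5 (-0.35) were not.

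With LepAb in kidney, Napsa rose and Slc34a2 fell in LepK against IgGK, where 10.4% of the genes tested were called, 4.38% higher and 5.99% lower. This comparison shares the IgGK libraries with the one before, so opposite signs in both are not independent. For both genes the LepK and IgGK libraries did not overlap, nor did they for 37.4% of the genes tested (17.8% higher and 19.5% lower in LepK). Napsa was at 2144, 1991 and 1722 normalized CPM in the LepK libraries, above all IgGK libraries, and its log2 fold change was 0.74 (SE 0.10, edgeR adjusted p = 0.000496). Slc34a2 was at 15.6, 21.3 and 20.9 normalized CPM in LepK, below all IgGK libraries (32.6 to 34.1) and above all WTK libraries (1.46 to 2.16), with a log2 fold change of -0.79 (SE 0.13, edgeR adjusted p = 0.00126).

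Sftpd had 11, 4 and 6 counts in the LepK libraries, all below the IgGK libraries, with a log2 fold change of -2.22 (SE 0.60) and of -2.64 to -1.93 when 1 library was left out. Abca3 was at 307, 222 and 253 normalized CPM in LepK, overlapping IgGK, with a log2 fold change of 0.21 (SE 0.10, edgeR adjusted p = 0.181). Etv5 was at 19.0, 17.2 and 15.4 in LepK and 17.3, 18.3 and 16.4 in IgGK, with a log2 fold change of -0.01 (SE 0.10, edgeR adjusted p = 0.97).

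Markers of tubules and of other cells moved with these genes in kidney, and their part in the changes was not tested. Of all genes tested in kidney, 21.7% rose and 15.6% fell in IgGK against WTK. In LepK against IgGK, 4.38% rose and 5.99% fell. All 11 proximal tubule genes fell in IgGK against WTK (median -1.53 on the log2 scale), and 9 of 11 rose in LepK against IgGK (median 0.83). Summed over the 11 genes, the level was 56000 to 57900 normalized CPM for WTK, 14140 to 21690 for IgGK and 30100 to 40370 for LepK. All 8 injured tubule genes rose in IgGK against WTK (median 4.85) and 7 of 8 fell in LepK against IgGK (median -0.94), with sums of 544 to 602 in WTK, 6949 to 7391 in IgGK and 3011 to 4406 in LepK. Slc34a1, which encodes the main phosphate transporter of the proximal tubule, had 9465 ± 337 normalized CPM in the WTK libraries, 2289 ± 345 in the IgGK libraries and 4214 ± 577 in the LepK libraries, opposite in direction to Slc34a2 in both comparisons.

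Macrophage, neutrophil and fibroblast markers were higher in IgGK and lower in LepK. Of 12 macrophage markers 11 rose in IgGK against WTK (median 3.11) and 10 fell in LepK against IgGK (median -1.16), with sums of 271 to 310 normalized CPM in WTK, 1913 to 2421 in IgGK and 722 to 1050 in LepK. Of 12 neutrophil markers 5 were tested, and all 5 rose and then fell (medians 3.49 and -2.29). The summed level of the list was 2.09 to 2.60 in WTK and at most 28.8 in any kidney library. Such genes may have passed the filter only through IgGK, where they were high, so these neutrophil counts are a description. Of 10 fibroblast markers 9 rose (median 1.81) and 8 fell (median -0.99), with sums of 226 to 289 in WTK, 1484 to 1683 in IgGK and 566 to 910 in LepK. All 5 hemoglobin and erythroid genes rose in LepK against IgGK (median 1.22, and -0.02 in IgGK against WTK), with sums of 77.1 to 161 in IgGK and 215 to 373 in LepK.

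The type 2 lists held genes that are not limited to lung. Of the 20 other type 2 markers 17 were tested in kidney, of which 11 rose and 0 fell in IgGK against WTK (median 0.97 on the log2 scale) and 1 rose and 3 fell in LepK against IgGK (median -0.28). Of the 11 transcription factor and signalling genes 9 were tested, with 7 higher and 2 lower in IgGK against WTK, and 0 higher and 2 lower in LepK against IgGK. Of the 18 surfactant lipid genes 17 were tested, with 6 higher and 4 lower, and then 0 higher and 2 lower. Of the 14 transitional genes 10 rose and 1 fell in IgGK against WTK, and 0 rose and 5 fell in LepK against IgGK. Over all genes tested in kidney, 21.7% were called higher and 15.6% lower in IgGK against WTK. In LepK against IgGK these shares were 4.38% and 5.99%, and several of the list counts lie near them.

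The effect of LepAb in lung was compared with that in kidney in 1 fit of the 12 libraries from injured organs, for the 5 genes that passed the filter in both organs. Organ, injury and day differ together and cannot be told apart. Among the 21488 genes tested, 7.12% had a difference with an adjusted p under 0.05, 3.62% with the effect higher in lung and 3.51% with it lower. The difference was 1.91 on the log2 scale for Slc34a2 (SE 0.34, edgeR adjusted p = 0.0119) and 1.06 for Etv5 (SE 0.26, edgeR adjusted p = 0.033). For Abca3 it was 0.37 (SE 0.25, edgeR adjusted p = 0.394) and for Napsa -0.24 (SE 0.20, edgeR adjusted p = 0.496). Slc34a2 fell with LepAb in kidney and had a log2 fold change of 1.15 in lung that did not pass. For Sftpd the difference was 2.80 (SE 0.30), given with no test because its kidney reads passed the filter only through IgGK. The other 5 genes had too few kidney reads for their difference to be read.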

How the data were processed

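Deposited values covered 9 kidney and 6 lung libraries made by poly(A) selection without strand. The authors deposited 1 table per gene with whole-number read counts, not normalized, and FPKM values scaled to gene length and library size. The submitters' processing notes name GRCm39 and the tools DESeq and DESeq2, and the aligner and counter are not given in the sources used here. The table also holds the authors' group means, log2 fold changes and p-values of their comparisons, which were not used. A line in the sample descriptions that names a column disagreed with the other labels and was not used, and the column name of LepL replicate 3 has an added suffix.

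Counts were filtered with filterByExpr (minimum count 10, minimum total 15), TMM-scaled and fitted with edgeR 4.0.16 (R 4.3.3) by quasi-likelihood, for lung (6 libraries) and kidney (9 libraries, 3 groups) apart. This left 4 residual degrees of freedom in lung and 6 in kidney. SE is the log2 fold change over the square root of F. DESeq2 1.42.0, RLE and library-size scaling, other filters, 1 fit of all 15 libraries, the replicate number as a block, no fold threshold and leaving out each library were alternatives. The fits were tested on simulated data. At these depths the floor of 3 counts limits low genes.

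Abca3, Napsa, Slc34a2 and Cxcl15 overlap genes on the opposite strand with few counts, and without strand such reads cannot be told apart. The chosen genes and lists were fixed with earlier results of these data known. Named were all 10 genes, and from each list those with the smallest p in LepL against IgGL or called there, and the 6 nearest profiles. Further list genes (Cldn18, Sfta2, Dram1, Scd1, Ctsh, Lyz2, Slc34a1) were named after their values were seen.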

Additional observations from a re-analysis of the deposited data

Results flagged for a closer look

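The effect of LepAb on Sftpd differed between the organs by 2.80 on the log2 scale (LepL against IgGL minus LepK against IgGK), and the kidney side has 21 counts in LepK and 113 in IgGK. Sftpd passed the filter on low counts in kidney only through IgGK, the group where it was high, so this value is a description and its test is not read. The effect on Slc34a2 differed by 1.91, with a log2 fold change of 1.15 in lung that did not pass and one of -0.79 in kidney. The effect on Etv5 differed by 1.06, with a rise in lung and a log2 fold change of -0.01 in kidney. All 3 were listed because the test of the difference itself passed in the 12 libraries from injured organs. For Sftpd that pass is not read, because the gene entered through IgGK only. For Slc34a2 the test held in all 12 fits that left out 1 library, and for Etv5 in 3 of 12, without IgGL replicate 1, IgGL replicate 3 or LepL replicate 1.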

How the results depend on the processing

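In lung, 10 of the 10 genes were called higher with DESeq2, with no filter on low counts and with all 15 libraries in 1 fit, where 2338, 2688 and 2293 of all genes were called, in place of 812. Leaving out 1 library gave 0 to 10 of the 10 genes and 0 to 3539 of all genes. The log2 fold changes stayed positive for all 10 genes under every alternative run. For IgGK against WTK, library-size scaling left 1 of the 5 genes called lower (Abca3) and moved the calls of all genes from 4253 higher and 3057 lower to 7803 higher and 1178 lower. In LepK against IgGK it moved them from 858 and 1174 to 408 and 2185, with a median of -0.19. In the difference between organs, it moved the share of calls higher in lung from 50.8% to 88.8%, with a median of 0.25, and Napsa changed sign, to 0.0039. The counts of genes called in kidney include Sftpd, which passed the filter only through IgGK. With a mean of at least 1 CPM, Sftpd was not tested, so 1 gene was called higher in IgGK against WTK and 1 lower in LepK against IgGK. Without a fold threshold, LepK against IgGK had 4025 calls. Leaving out 1 library gave 1 to 2 genes called lower in LepK against IgGK and 1303 to 2260 calls of all genes. Etv5 in LepK against IgGK changed sign without IgGK replicate 1 (0.0058), IgGK replicate 2 (0.0365) or LepK replicate 3 (0.0651), with a range of -0.0804 to 0.0651 over the 6 fits, and was not called in any. The difference between organs had 2926 calls with DESeq2 and 2659 with no filter, in place of 1531, and 352 to 3763 without 1 library. Library-size scaling changed the summed level of the 10 genes from 2649 to 2253 CPM in WTK and from 1444 to 1665 in IgGK.

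The replicate numbers are not stated to pair libraries. Same-numbered libraries of IgGL and LepL had correlations of their deviations of -0.0194, 0.0714 and -0.0552, those of IgGK and WTK 0.0383, -0.00393 and -0.0048, and those of LepK and IgGK 0.182, 0.164 and -0.0341. With the replicate block, 0 of the 10 genes and 4 of all genes were called by edgeR in lung. All 10 had an unadjusted p under 0.05 in that fit, as had 24.5% of all genes tested. The difference between organs had 1006 calls with the block. Of the 383 log2 fold changes of single genes under alternatives, 311 kept direction and call, 52 lost the call, 16 gained it and 4 changed sign. The cause of these moves was not tested.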

Other observations

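Relative to the mean, the LepL libraries were closer to one another than the IgGL libraries for all 10 genes. The SD itself was larger in LepL for Sftpc (2495 against 2060 normalized CPM) and Sftpa1 (411 against 279), and smaller for the other genes. The coefficient of variation of normalized CPM over the 3 LepL libraries was 0.434% for Abca3, 0.584% for Napsa and 0.991% for Sftpd, against 30.1%, 19.6% and 13.5% over the 3 IgGL libraries. For Sftpc it was 17.7% in LepL and 38.6% in IgGL. With 8978 to 11675 counts of Abca3 in a LepL library, and similar counts of Napsa, counting error alone gives a larger spread than seen. The closeness of these 3 libraries for Abca3 and Napsa is therefore not read further.

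Traces of the lung genes in kidney were uneven between libraries. IgGK replicate 2 held 8 of the 12 kidney counts of Cxcl15 and 7 of the 19 of Lamp3, and IgGK replicate 1 held 5 of the 12 of Sftpb.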
